A study of Homo sapiens with 9 samples.

Results

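The genes described here are MYCN and 9 other genes of the MAX network, MYC, MAX, MXD1, MXD3, MXD4, MXI1, MNT, MLXIP and MGA, in NCI-H1155 cells (H1155 in the labels), a line of human lung cancer cells that carry neuroendocrine markers. They were taken by gene symbol from a table of 23369 genes, and all 10 symbols were found. RNA was sequenced after 4 h with 1 µM foretinib or 1 µM cabozantinib, or from the DMSO control. Each group held 3 libraries, named here by the numbers in their titles: 1, 2 and 4 for foretinib, 3, 4 and 5 for cabozantinib, and 2, 4 and 5 for DMSO. Both compounds are multi-kinase inhibitors related in structure, whose known targets include MET and KDR. All libraries came from this 1 cell line, so that the spread between them is that between cultures of a line, which the labels call biological triplicates. Tested neuroendocrine markers numbered 11 and summed to 69986 to 81776 normalised reads in foretinib, 70536 to 78481 in cabozantinib and 70455 to 78921 in DMSO, with median log2 fold changes of 0.08 and 0.12 against DMSO. ENO2, a neuronal enolase, was at 6346 ± 903, 4916 ± 325 and 4896 ± 1647 (SD, n = 3 each) in foretinib, cabozantinib and DMSO, and GRP was listed at 0 in all libraries. SYP, a synaptic vesicle protein, was at 5107 ± 1410, 2882 ± 737 and 4577 ± 358. All cabozantinib libraries of SYP lay below the DMSO libraries (log2 fold change -0.70, 95% interval -1.32 to -0.07, limma adjusted p = 1), and foretinib against cabozantinib gave 0.81 (0.19 to 1.44, limma adjusted p = 0.398) with overlap. Markers of fibroblasts, leukocytes and red cells summed to 869 to 1196, 796 to 1090 and 524 to 1345, with COL3A1, DCN, PTPRC, CD3E, CD79A and HBB listed at 0 throughout. Of the fibroblast markers, COL1A2 was above 0 in every library, at 668 ± 460, 865 ± 203 and 810 ± 327 in foretinib, cabozantinib and DMSO. COL1A1 was at 572, 0 and 531 in foretinib replicates 1, 2 and 4, at 83.4 ± 55.9 in cabozantinib and at 73.5 ± 115 in DMSO. Its log2 fold change for foretinib against DMSO was 2.17 (95% interval -4.32 to 8.67).

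MYC proteins bind DNA only as heterodimers with MAX, at E-box elements such as CACGTG, and activate genes of growth and metabolism there. The MXD proteins, MXI1 and MNT compete with them for MAX and recruit SIN3 corepressors to the same elements. MGA also pairs with MAX, in a Polycomb complex with E2F6, and MLXIP (MondoA) pairs with MLX, a relative of MAX, and responds to glucose metabolites. MYCN is a family member found in neural and neuroendocrine tissue, and its amplification marks aggressive neuroblastoma.

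The promoter of MYCN is shown because this was the MYC family gene with reads in every library. The 250 bases before its start site, chr2:15940300-15940549 of GRCh38.p14 on the plus strand, from RefSeq, hold the sequence TTTGGCGC, a form of the E2F element, with its first base at position -176 from the start. That match is in capitals.
MYCN: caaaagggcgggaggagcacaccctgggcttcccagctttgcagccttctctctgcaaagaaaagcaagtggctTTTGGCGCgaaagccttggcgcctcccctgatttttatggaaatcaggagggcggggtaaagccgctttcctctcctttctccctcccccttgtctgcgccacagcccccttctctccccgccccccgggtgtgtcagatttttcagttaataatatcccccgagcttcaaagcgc

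The E-box CACGTG, searched on both strands of windows from 250 bases before to 50 after each start site, was found in 2 of 14 windows of 9 members, those of MXD4 and MNT, and in 7.26% of all 35116 promoter windows in the RefSeq table. MYC was not searched. The variant CACGCG was in 3 of the 14 windows, against 11.4% of all windows. The E2F elements TTTGGCGC and TTTCCCGC were in 2 windows (of MYCN and MGA) and in 0, against 0.652% and 1.63% of all windows. These matches describe the letters and do not show binding. The E-boxes are given in capitals, as the element that the heterodimers recognise, on the minus strand of GRCh38.p14 at chr4:2262325-2262359 (MXD4) and chr17:2401231-2401270 (MNT).
MXD4: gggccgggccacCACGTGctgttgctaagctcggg
MNT: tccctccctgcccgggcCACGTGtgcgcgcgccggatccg

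Foretinib libraries had 16.3% to 21% of the tested genes at 0, cabozantinib libraries 4.41% to 5.48% and DMSO libraries 5.3% to 10.9%, at 26996023 to 34062153, 27264766 to 27522332 and 27257862 to 32986439 gene-assigned reads. This difference in detection moved with the foretinib group, and its part in the results was not tested. In bulk RNA, fewer cells of a type and less RNA per cell cannot be told apart. Fold changes are on the scale of log2(value + 1) from limma, fitted to 12642 genes, with a 95% interval. Taken over the whole set of tested genes, the median was -0.34 in foretinib and 0.04 in cabozantinib relative to DMSO, and -0.44 in foretinib relative to cabozantinib. For that reason each member's change is also given relative to the median of tested genes within 1.5-fold of its own mean level. A mean is given ± SD, n = 3 libraries per group.

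MYCN was the MYC family gene with reads in every library. It was at 2690, 4428 and 2803 normalised reads in foretinib replicates 1, 2 and 4, at 2566, 2730 and 3534 in cabozantinib replicates 3, 4 and 5, and at 2797, 2433 and 1965 in DMSO replicates 2, 4 and 5. The groups overlapped, DMSO replicate 2 lying above foretinib replicate 1 and foretinib replicate 2 standing highest. MYC was listed at 0 in all 9 libraries, and so was EIF4A1, a translation initiation factor of every cell, so a listed 0 cannot be read as absence of the transcript. MYCL, under its older symbol MYCL1, was above 0 in 1 library, cabozantinib replicate 3, at 27.8 normalised reads.

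Means of MYCN were 3307 ± 973 in foretinib, 2943 ± 518 in cabozantinib and 2398 ± 417 in DMSO, an order whose neighbours did not differ beyond their spread. The log2 difference was 0.44 (SE 0.32, 95% interval -0.24 to 1.12) for foretinib against DMSO, or 0.46 above the median of like-level genes. It was 0.30 (SE 0.32, 95% interval -0.39 to 0.98) for cabozantinib against DMSO, which shares the DMSO libraries. Between foretinib and cabozantinib it was 0.14 (95% interval -0.54 to 0.83). In folds these intervals run from 0.845 to 2.18, from 0.765 to 1.97 and from 0.688 to 1.77, with limma adjusted p of 0.612, 1 and 0.867. Without foretinib replicate 2 the difference from DMSO was 0.21 and that from cabozantinib -0.09. The spread of MYCN was not unusual, its coefficient of variation being 29.4% in foretinib, 17.6% in cabozantinib and 17.4% in DMSO, beside medians of 38.8%, 19.4% and 22.4% for 1995 genes of like level.

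**Figure D1:**
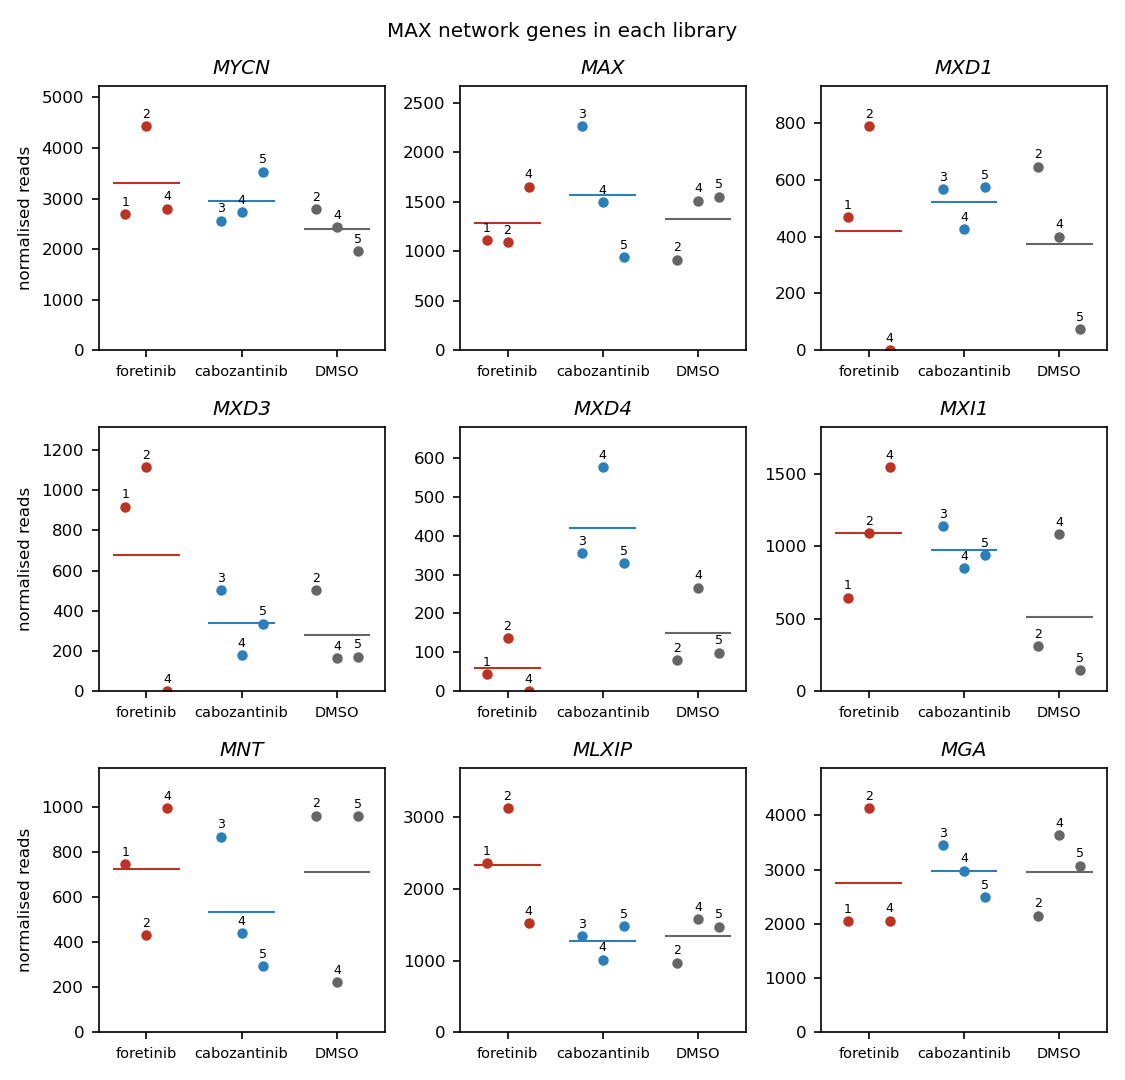
Normalised reads of the 9 members above 0 in each library, as dots with the replicate number and a line at the group mean. MYCN lies at 1965 to 4428 in the 9 libraries with overlapping groups, and MXD1, MXD3 and MXD4 are all at 0 in foretinib replicate 4.

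Per kilobase of exon, MYCN stood above every other member in each of the 9 libraries. It was at 1271 ± 374 normalised reads per kb in foretinib, 1131 ± 199 in cabozantinib and 922 ± 160 in DMSO. MAX, its obligate partner, was at 314 ± 77.6, 382 ± 162 and 324 ± 86.6 normalised reads per kb in the same order of groups. Within a library MYCN was 1.79 to 5.84 times the next member per length, or 1.37 to 4.54 times with the longest transcript as the length. Lengths are unions of the exons of protein-coding transcripts in GENCODE 29, which is not the authors' annotation. The transcript in use is unknown, and the order depends on it. On the shortest annotated transcript of each gene, MAX (330 bases) would be above MYCN in every group, at 3903 per kb against 1953 for MYCN in foretinib. On the same lengths MLXIP would be above MYCN in foretinib (2901) and in DMSO (1669 against 1417), and MGA above it in cabozantinib (1989 against 1738) and in DMSO (1975). The remaining members averaged 14.9 to 270 normalised reads per kb in foretinib, 93.0 to 241 in cabozantinib and 36.7 to 195 in DMSO.

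**Figure D2:**
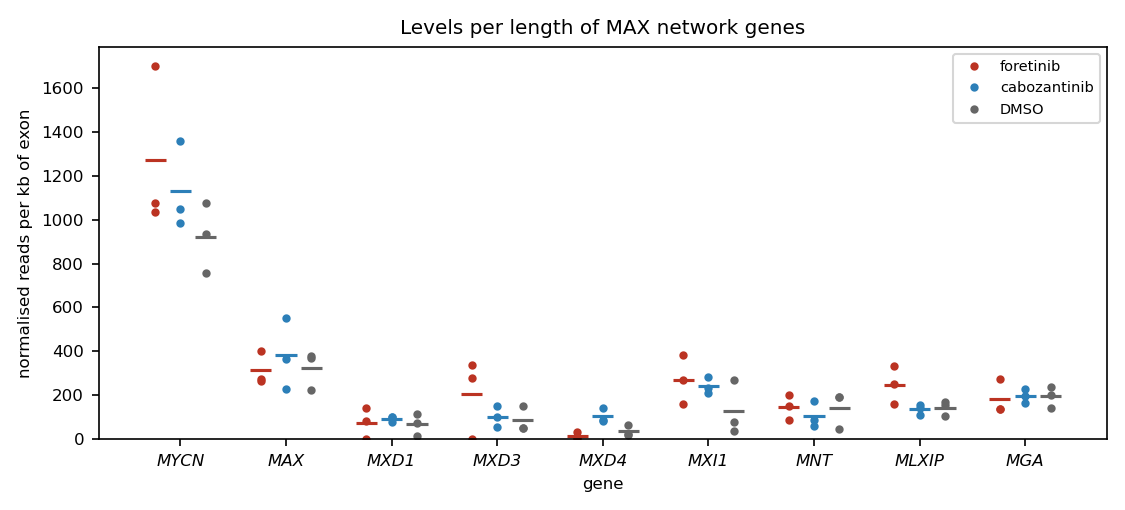
Normalised reads per kb of exon for the 9 members above 0, with dots for libraries and short lines for group means (foretinib, cabozantinib, DMSO from left to right). MYCN lies above all others, at group means of 1271, 1131 and 922, with MAX at 314, 382 and 324.

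MAX, the shared partner, was at 1116, 1093 and 1655 normalised reads in the foretinib libraries, 2263, 1499 and 943 in the cabozantinib libraries and 918, 1512 and 1554 in the DMSO libraries. The groups overlapped throughout, and the extremes were cabozantinib replicate 3 and DMSO replicate 2. The log2 fold change was -0.03 (95% interval -1.09 to 1.02) for foretinib against DMSO, 0.19 (-0.86 to 1.24) for cabozantinib against DMSO, while between the compounds, foretinib over cabozantinib, it was -0.22 (-1.28 to 0.83). The sign of each changed when single libraries were left out. Within a library the ratio of MYCN to MAX reads was 2.72 ± 1.21 in foretinib, 2.23 ± 1.35 in cabozantinib and 1.97 ± 0.945 in DMSO.

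Among the MXD repressors, 3 genes shared a pattern in foretinib. MXD1 was at 469, 787 and 0 normalised reads in foretinib replicates 1, 2 and 4, at 566, 427 and 574 in cabozantinib and at 645, 400 and 75.4 in DMSO. MXD3, a member linked to proliferating cells, was at 917, 1112 and 0 in foretinib, at 501, 180 and 337 in cabozantinib and at 501, 166 and 173 in DMSO. MXD4 was at 44.4, 137 and 0 in foretinib, at 355, 575 and 329 in cabozantinib and at 80.7, 266 and 99.8 in DMSO. All 3 genes were thus at 0 in foretinib replicate 4, where 21% of all tested genes were at 0, and above 0 in the other 8 libraries. Of tested genes of like level, 21.5% were at 0 in that library for MXD1, 21.6% for MXD3 and 45.4% for MXD4.

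The direction for MXD1 and MXD3 depended on that library and on the scale and tool. The log2 fold change of MXD1 in foretinib against DMSO was -1.91 (95% interval -6.74 to 2.91) and that of MXD3 -1.28 (-6.34 to 3.78), whereas group means ran the other way, at 418 ± 396 against 374 ± 286 for MXD1 and 676 ± 594 against 280 ± 191 for MXD3. Genes of like level had a median of -1.62 in this comparison. Without foretinib replicate 4 the values became 1.17 for MXD1 and 2.05 for MXD3. With all libraries kept, MXD1 was at 0.07 with quantile normalisation, 0.15 in edgeR and 0.17 in DESeq2. MXD3 was at 1.13, 1.25 and 1.27 in the same order, and at 0.50 with a pseudocount of 100. Against cabozantinib they were -2.85 and -1.64, or 0.23 and 1.69 without that library.

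MXD4, a repressor found in differentiated cells, had the widest separation. All 3 cabozantinib libraries, at 420 ± 135 normalised reads, lay above the foretinib libraries, at 60.6 ± 70.1, and above the DMSO libraries, at 149 ± 102. The log2 fold change was 1.65 (95% interval -3.20 to 6.50) for cabozantinib against DMSO, and between the compounds (foretinib over cabozantinib) it was -4.47 (-9.31 to 0.38), with limma adjusted p of 1 and 0.514. Set against like-level genes these were 1.34 and -2.08, the median of such genes being -2.39 between the compounds. Without foretinib replicate 4 the difference between the compounds was -2.36, and over 18 alternatives it ran from -6.43 to -1.75 with adjusted p between 0.26 and 0.952. Cabozantinib against DMSO ran from 1.11 to 3.05 over 18 alternatives. Foretinib against DMSO gave -2.82 (-7.67 to 2.03), or -0.71 without foretinib replicate 4 and 0.39 with quantile normalisation.

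MXI1, a MAX partner that antagonises MYC proteins, was at 646, 1092 and 1546 normalised reads in foretinib, 1138, 852 and 942 in cabozantinib, and 310, 1086 and 148 in DMSO. DMSO replicate 4 lay among the treated libraries, while DMSO replicates 2 and 5 were below all 6 of them. Means were 1095 ± 450, 977 ± 146 and 515 ± 501 in foretinib, cabozantinib and DMSO. The log2 fold change was 1.48 (95% interval -0.26 to 3.22) for foretinib and 1.40 (-0.35 to 3.14) for cabozantinib, both against the same DMSO libraries, with limma adjusted p of 0.531 and 1. Set against like-level genes the values were 1.90 and 1.38. The coefficient of variation in DMSO, 97.4%, was higher than in 98.3% of 2807 genes of like level. The fold change was 0.83 and 0.74 without DMSO replicate 5, and 2.26 and 2.17 without DMSO replicate 4. Between foretinib and cabozantinib it was 0.09 (-1.66 to 1.83).

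MNT, a repressor that is broadly expressed in proliferating and resting cells, was at 747, 432 and 996 normalised reads in foretinib, 870, 442 and 293 in cabozantinib and 963, 222 and 960 in DMSO. Its groups overlapped in all 3 comparisons, with log2 fold changes of 0.21 (95% interval -1.70 to 2.13) for foretinib and -0.29 (-2.20 to 1.62) for cabozantinib against DMSO. Foretinib against cabozantinib gave 0.50 (-1.41 to 2.42). Like-level genes had medians of -0.74, 0.02 and -0.77 in these 3 comparisons, and relative to them MNT was at 0.95, -0.31 and 1.28. MXD1, MXD3, MXD4, MXI1 and MNT together summed to 2975 ± 525 normalised reads in foretinib, 2794 ± 551 in cabozantinib and 2032 ± 530 in DMSO. Without MNT the sums were 2250 ± 805, 2259 ± 271 and 1317 ± 736. The ratio of MYCN reads to the sum with MNT was 1.10 ± 0.146 in foretinib, 1.09 ± 0.340 in cabozantinib and 1.20 ± 0.128 in DMSO, and it lay between 0.748 and 1.43 in every library.

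MLXIP was at 2357, 3126 and 1524 normalised reads in foretinib, 1339, 1015 and 1478 in cabozantinib, and 972, 1581 and 1477 in DMSO. Foretinib lay above cabozantinib in every library, the lowest foretinib library exceeding the highest cabozantinib library narrowly, and it overlapped DMSO through its replicate 4. Means were 2336 ± 801, 1278 ± 237 and 1344 ± 326. The log2 fold change was 0.83 (SE 0.44, 95% interval -0.12 to 1.77) for foretinib against cabozantinib and 0.77 (SE 0.44, 95% interval -0.17 to 1.71) for foretinib against DMSO, with limma adjusted p of 0.520 and 0.536. In both the direction held in all 19 alternatives, which refit the same libraries, at 0.59 to 1.10 and 0.53 to 1.05, with adjusted p from 0.257 to 0.78 and 0.299 to 0.776. Cabozantinib against DMSO was at -0.06 (SE 0.44, limma adjusted p = 1). MLX, the partner of MLXIP, was at 875 ± 162 in foretinib, 1526 ± 387 in cabozantinib and 1181 ± 713 in DMSO, with foretinib below cabozantinib in every library (-0.79, 95% interval -2.15 to 0.57, limma adjusted p = 0.633). MLXIPL (ChREBP), the other glucose-responsive partner of MLX, was at 90.6 ± 157, 139 ± 37.9 and 164 ± 142.

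MGA, the largest of the MAX partners, was at 2051, 4132 and 2063 normalised reads in foretinib, 3458, 2980 and 2490 in cabozantinib and 2154, 3632 and 3077 in DMSO. Foretinib replicate 2 was the highest and foretinib replicates 1 and 4 the lowest of the 9 libraries. Group means of 2749 ± 1198, 2976 ± 484 and 2954 ± 747 differed by less than their spread. The log2 fold change was -0.15 (95% interval -0.92 to 0.61) for foretinib and 0.03 (-0.73 to 0.79) for cabozantinib against DMSO, and -0.18 (-0.95 to 0.58) between the compounds.

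**Figure D3:**
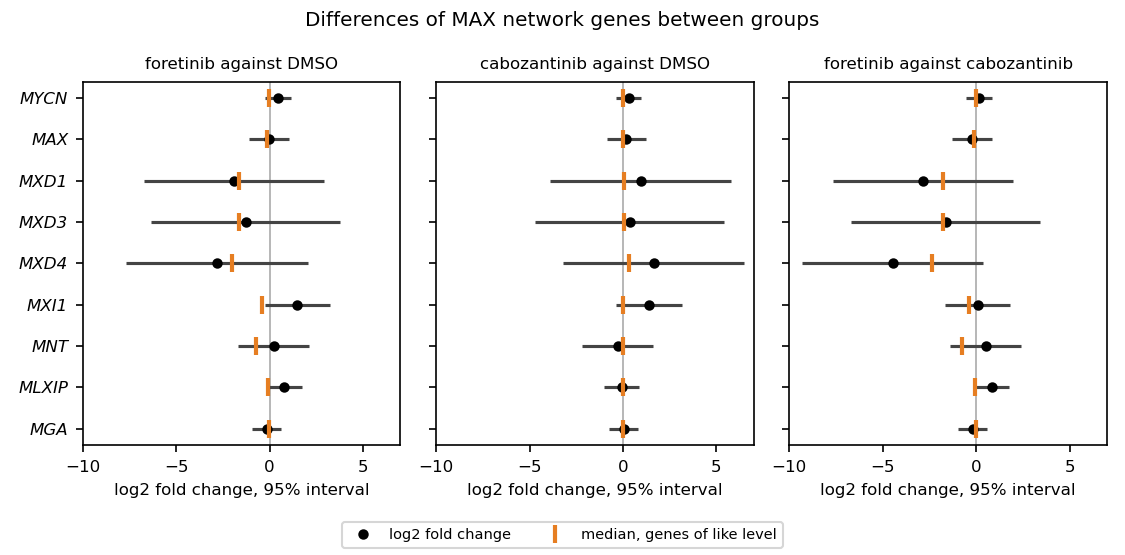
Log2 fold changes of the 9 tested members in the 3 comparisons, with dots for the estimate, bars for the 95% interval and orange ticks for the median of tested genes of like level. Every interval includes 0, and those of MXD1, MXD3 and MXD4 are the widest, as for MXD4 in foretinib against cabozantinib, from -9.31 to 0.38.

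As a group, 9 of the 10 members reached the filter, MYC being the exception. At an adjusted p below 0.05 limma called 0 of the 9 in each comparison, and it called 0 of 12642 genes in each, 0% for the background. At an unadjusted p below 0.05 it marked 0 of 9 members in each comparison, against 9.07% of genes for foretinib against DMSO (1146 genes), 1.31% in cabozantinib against DMSO (166 genes) and 9.9% between foretinib and cabozantinib (1252 genes). By direction, 2.17% of genes were higher and 6.9% lower in foretinib against DMSO, 0.878% and 0.435% in cabozantinib against DMSO, and 1.83% and 8.08% in foretinib against cabozantinib. Over all genes edgeR on whole reads called 0 in each comparison. DESeq2 called 656, 49 and 621 of the 12642 genes in the same order, with 0 of the 9 members among them. Groups did not overlap for 0 of 9 members in foretinib against DMSO, where 11.7% of tested genes did not (3.99% higher, 7.69% lower). The count was 1 of 9 in cabozantinib against DMSO, MXD4 being higher, beside 9.9% of genes (5.18% higher, 4.71% lower). It was 2 of 9 in foretinib against cabozantinib, MXD4 lower and MLXIP higher, beside 14.2% (4.49% higher, 9.7% lower). With 9 members, these counts are near the background. The median log2 fold change of the 9 members was -0.03, 0.30 and -0.18 in these comparisons, beside -0.34, 0.04 and -0.44 over all tested genes.

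**Figure D4:**
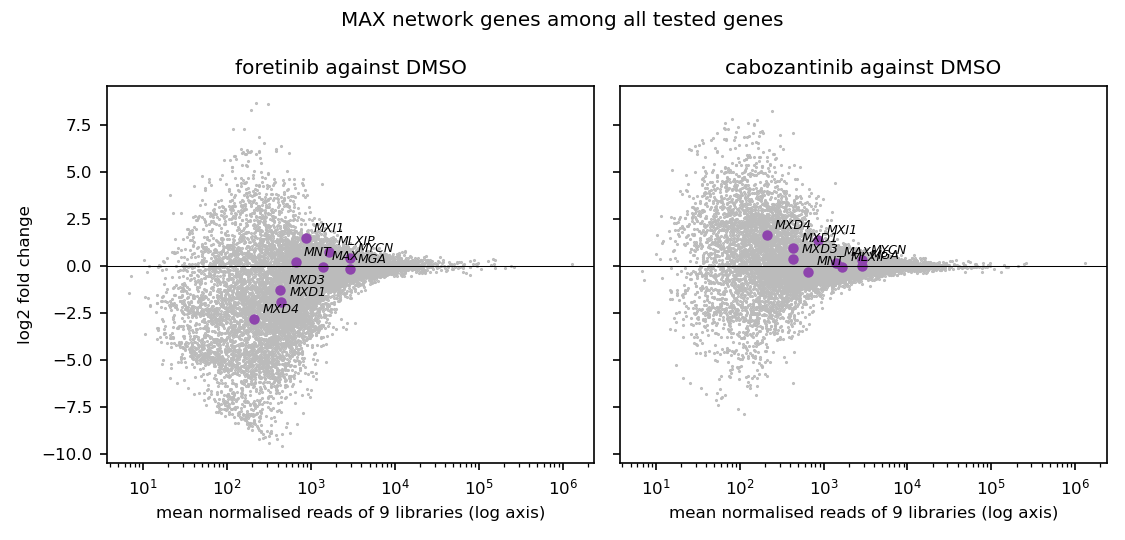
Log2 fold change of every tested gene (grey) against its mean normalised reads over the 9 libraries on a log axis, with the 9 members in purple, for foretinib and cabozantinib against DMSO. Members lie inside the cloud of genes of their own level, MXD4 at -2.82 and MXI1 at 1.48 being their extremes in foretinib and MXD4 at 1.65 and MNT at -0.29 in cabozantinib.

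Genes that work with the network were followed in lists. In the Polycomb complex of MGA and E2F6, limma called 0 of 12 tested members in each comparison, with a median log2 fold change of -0.13 for foretinib and -0.04 for cabozantinib against DMSO. CBX3, the heterochromatin protein HP1 gamma, was at 13707 ± 1928 normalised reads in foretinib, 11488 ± 914 in cabozantinib and 8625 ± 1844 in DMSO. All treated libraries lay above the DMSO libraries. Its log2 fold change was 0.68 (95% interval 0.26 to 1.10, limma adjusted p = 0.359) for foretinib and 0.43 (0.02 to 0.85, adjusted p = 1) for cabozantinib, and DESeq2 called it in foretinib (0.67, adjusted p = 0.00919). L3MBTL2, which recruits this complex to chromatin, was at 765 ± 663, 1446 ± 721 and 842 ± 357 normalised reads, and RNF2, its ubiquitin ligase, at 709 ± 615, 575 ± 277 and 850 ± 377, in foretinib, cabozantinib and DMSO. Neither passed, at -2.04 and -2.65 in foretinib against DMSO (limma adjusted p = 0.644 and 0.622), and each value turned without 1 library. L3MBTL2 was at 1076, 1215 and 4.18 in foretinib replicates 1, 2 and 4, and its log2 fold change was 0.55 without replicate 4. RNF2 was at 0.822, 1112 and 1013 in the same replicates, with 0.41 without replicate 1.

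Of the SIN3 and NCOR corepressors through which MXD proteins act, 0 of 15 were called in each comparison, with medians of 0.04 for foretinib and 0.08 for cabozantinib against DMSO. SIN3B, a scaffold of the SIN3 complex, was at 543 ± 236 normalised reads in foretinib, 835 ± 250 in cabozantinib and 1382 ± 246 in DMSO, with each treated group below DMSO in every library. Its log2 fold change was -1.43 (95% interval -2.79 to -0.06) for foretinib and -0.76 (-2.13 to 0.61) for cabozantinib, with limma adjusted p of 0.531 and 1. For foretinib the like-level median was -0.36, and relative to it SIN3B was at -1.07. NCOR1, a scaffold for HDAC3, was at 7023 ± 1172, 9013 ± 820 and 9318 ± 684 in the same order, and foretinib lay below both other groups without overlap (-0.42 against DMSO, 95% interval -0.83 to -0.01, limma adjusted p = 0.531). RBBP7, a histone-binding subunit, was at 10434 ± 1948 in cabozantinib and 8456 ± 916 in DMSO (0.29, 95% interval -0.13 to 0.72).

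Among transcriptional cofactors of MYC proteins 0 of 17 were called, with medians of -0.03 for foretinib and -0.01 for cabozantinib against DMSO. KAT5, an acetyltransferase, was at 1227, 557 and 9.41 normalised reads in foretinib replicates 1, 2 and 4, at 880 ± 113 in cabozantinib and at 1436 ± 555 in DMSO (-2.83, 95% interval -5.78 to 0.11, limma adjusted p = 0.531, and -0.73 without foretinib replicate 4). RUVBL2, a chromatin remodelling ATPase, was at 9758 ± 1667 in foretinib, 7590 ± 475 in cabozantinib and 7602 ± 774 in DMSO (0.35 against DMSO, 95% interval -0.06 to 0.77). EP400, of the same complex as KAT5, was at 4802 ± 2823, 2867 ± 533 and 2802 ± 1124. CCNT1, the cyclin of the elongation kinase CDK9, was at 1856 ± 405 in foretinib, 1062 ± 408 in cabozantinib and 1817 ± 379 in DMSO (-0.83, 95% interval -1.79 to 0.14, for cabozantinib against DMSO).

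Regulators of MYC and MYCN protein stability were called in 0 of 19 cases, with medians of -0.07 and -0.10 against DMSO. PLK1, a mitotic kinase that counteracts degradation of MYCN through FBXW7, was at 2078 ± 67.1 normalised reads in foretinib, 1934 ± 759 in cabozantinib and 3126 ± 455 in DMSO. Foretinib lay below DMSO in every library (-0.58, 95% interval -1.34 to 0.18), and cabozantinib overlapped it (-0.75, -1.51 to 0.01). GSK3B, a kinase that marks MYC proteins for FBXW7, was at 4318 ± 1974, 3047 ± 939 and 2801 ± 737 in foretinib, cabozantinib and DMSO. GSK3A was at 4179 ± 877, 2849 ± 440 and 4004 ± 814, with foretinib above cabozantinib in every library (0.54, 95% interval -0.07 to 1.15, limma adjusted p = 0.519). PPP2R5A, a regulatory subunit of the phosphatase PP2A, was at 329 ± 243, 726 ± 180 and 682 ± 117. In foretinib against DMSO its log2 fold change was -1.52 (95% interval -3.67 to 0.63), beside a like-level median of -1.08. Its foretinib libraries held 61.7, 391 and 535, and without replicate 1 the value was -0.56.

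Of 30 MYC and MYCN targets in metabolism and growth, 27 were tested and limma called 0 in each comparison, with medians of -0.08 for foretinib and 0.07 for cabozantinib against DMSO, and -0.07 between the compounds. The list summed to 234563 ± 12279 normalised reads in foretinib, 226149 ± 7546 in cabozantinib and 218157 ± 14226 in DMSO. CAD, which starts pyrimidine synthesis, was at 7221, 9941 and 4860 in foretinib, 4310, 2918 and 4594 in cabozantinib and 3458, 3824 and 5522 in DMSO. Foretinib lay above cabozantinib without overlap (0.86, 95% interval 0.20 to 1.53, limma adjusted p = 0.398, and DESeq2 adjusted p = 0.0486) and overlapped DMSO (0.75, 0.09 to 1.41, limma adjusted p = 0.523).

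POLR1B, a subunit of RNA polymerase I, was at 1144 ± 132 normalised reads in foretinib, below cabozantinib at 2807 ± 685 and DMSO at 1923 ± 702 in every library. It was only narrowly below DMSO, the highest foretinib library being at 1278 and the lowest DMSO library at 1327. Against DMSO its log2 fold change was -0.69 (95% interval -1.55 to 0.17, limma adjusted p = 0.541). Between the compounds its log2 fold change was -1.27 (95% interval -2.13 to -0.41, limma adjusted p = 0.378, and DESeq2 adjusted p = 0.0194). HK2, hexokinase, was listed at 0 in all 3 foretinib libraries, against 159 ± 183 in cabozantinib and 280 ± 248 in DMSO, where DMSO replicate 5 was at 0.979. Its log2 fold change in foretinib against DMSO was -6.13 (95% interval -11.75 to -0.51, limma adjusted p = 0.528), beside a like-level median of -2.11. Against cabozantinib it was -6.51 (-12.13 to -0.89, limma adjusted p = 0.462), beside a like-level median of -2.70. DESeq2 called HK2 in both, and the part of low detection in foretinib was not tested. IMPDH2, of guanine nucleotide synthesis, was at 2888 ± 517, 3281 ± 966 and 1887 ± 983 (0.87, 95% interval 0.01 to 1.73, limma adjusted p = 1, for cabozantinib against DMSO). Its cabozantinib and DMSO libraries overlapped, cabozantinib replicate 5 being at 2180 and DMSO replicate 4 at 3004. TFRC, the transferrin receptor, was at 6580 ± 1273, 7545 ± 774 and 9218 ± 2341.

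**Figure D5:**
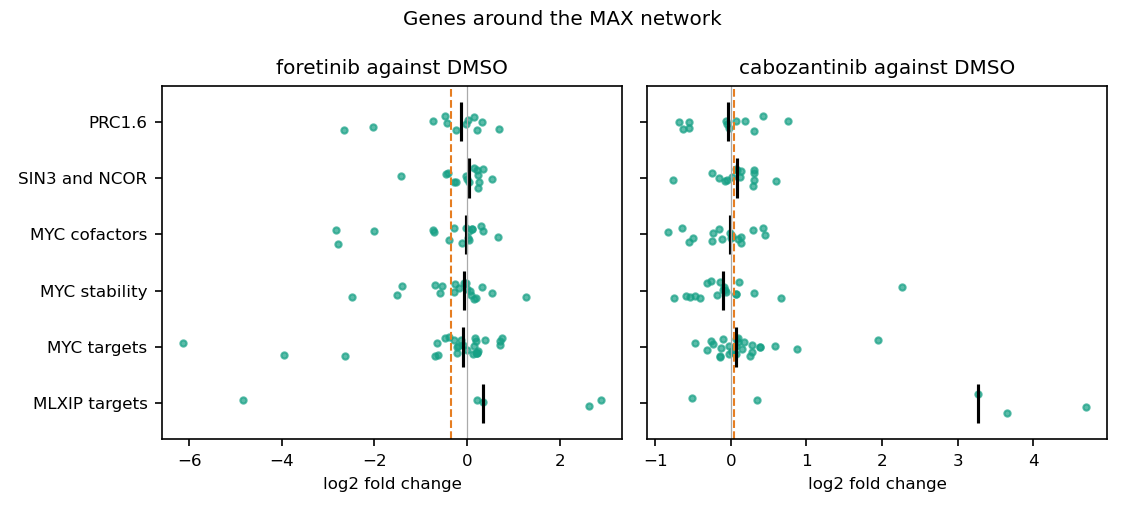
Log2 fold changes of the tested genes of 6 lists around the network, as dots with a black line at the list median, for foretinib and cabozantinib against DMSO, with the median of all tested genes as a dashed line (-0.34 and 0.04). The top row is the Polycomb complex of MGA and E2F6, the grey line marks 0, vertical scatter has no meaning and the x axes differ in range. Medians of the MYC targets are -0.08 and 0.07.

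Of the 5 targets of MLXIP, TXNIP, ARRDC4, HBP1 and PFKFB3 were at or near 0 in some libraries, while KLF10 was at 564 to 2317 normalised reads in every library. TXNIP, an inhibitor of glucose uptake that MLXIP induces, was at 913, 1.92 and 1485 normalised reads in foretinib, at 207 ± 42.2 in cabozantinib and at 65.2 ± 57.3 in DMSO. ARRDC4, a relative of TXNIP, was at 627 ± 1015, 309 ± 122 and 142 ± 220. Cabozantinib lay above DMSO in every library for TXNIP (3.27, 95% interval -2.72 to 9.25, and 1.06 without DMSO replicate 5). HBP1, a transcriptional repressor, was at 157, 170 and 196 in cabozantinib and at 0, 153 and 0.979 in DMSO, a narrow separation with a log2 fold change of 4.70 (-1.45 to 10.85) and a ratio of means of 3.41. In foretinib HBP1 was at 316, 0.96 and 0 (0.34 against DMSO, 95% interval -5.80 to 6.49). For ARRDC4 (3.65), PFKFB3 (0.35) and KLF10 (-0.52) cabozantinib overlapped DMSO. PFKFB3, a glycolytic regulator, was at 298 ± 515, 504 ± 306 and 381 ± 177, and KLF10, a zinc finger repressor, at 1547 ± 888, 885 ± 541 and 1194 ± 474. Foretinib libraries of PFKFB3 held 0, 893 and 1.05, with a log2 fold change of -4.84 against DMSO (95% interval -10.17 to 0.49, limma adjusted p = 0.531). Genes at the level of PFKFB3 had a median of -1.77 in that comparison. Limma called 0 of the 5 in each comparison. Their median log2 fold change was 0.34 for foretinib against DMSO, with -0.18 to 3.51 over the alternatives, and 3.27 for cabozantinib against DMSO, with -0.52 to 3.87. The former median is the value of HBP1.

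At the MYCN locus, DDX1, an RNA helicase that is often co-amplified with MYCN in neuroblastoma, was at 12875 ± 1842 normalised reads in foretinib, 10752 ± 1522 in cabozantinib and 10436 ± 1794 in DMSO (0.31 for foretinib against DMSO, 95% interval -0.12 to 0.73). FAM49A was at 2139 ± 739, 1457 ± 466 and 1810 ± 494, and TRIB2, a pseudokinase, at 306 ± 392, 284 ± 92.9 and 198 ± 344. Limma called 0 of the 4 tested neighbours in each comparison. MYCNOS, the antisense gene that overlaps MYCN exons in GENCODE 29, was above 0 in cabozantinib replicate 3 and in DMSO replicates 2 and 5, at no more than 68.5 normalised reads. Reads of the overlap cannot be told apart between both genes without a stated strand setting.

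The genes whose levels followed MYCN most closely over the 9 libraries, among 5487 tested genes at a mean of 1000 or more, were CEP135 (Pearson's r = 0.951 on the log2 scale), BCOR (0.892), CMAS (0.885), MKRN1 (0.875) and ATP5J (0.874). These values describe 9 points that share library and group, and carry no p. BCOR, a corepressor of BCL6, was at 12230 ± 2033 normalised reads in foretinib, 12173 ± 876 in cabozantinib and 9161 ± 605 in DMSO. CEP135, a centriole protein, was at 1247 ± 546, 1145 ± 445 and 716 ± 353. Among the members r with MYCN ran from -0.523 for MAX to 0.525 for MXI1.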

How the data were processed

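The authors deposited 1 table of signal values, which from the values themselves are read counts scaled by a single factor in each library. Named in the submitters' processing notes, with no roles, are HTSeq, DESeq2, TopHat2 2.0.13, Cufflinks 2.2.1 and the build hs37d5. The annotation, strand setting, filters and meaning of "combined" in the sample titles: not given in the sources used here. All values above 0 (100%) were whole multiples of 1 step per library (tolerance 1e-06), so reads and totals could be recovered. Steps of 3 libraries lay near 1. As the values were deposited as normalised counts, limma on their log2 scale was the main test. Tests on the recovered reads served as alternatives.

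A gene entered the test if 3 or more libraries held a value of at least 10, and was tested as log2(value + 1) with limma 3.58.1 in R 4.3.3 (mean-variance trend, all 9 libraries, no covariates), Benjamini-Hochberg adjusted over 12642 genes and called below 0.05. The fit was run on simulated counts with less spread than the like-level genes here and no excess of zeros in foretinib. That run does not show how the fit performs on these libraries. The alternatives were pseudocounts, filters, quantile and TMM scaling, edgeR 4.0.16, DESeq2 1.42.0, a replicate block, 6 libraries only and each library left out. The members and lists were chosen with earlier results of these data known. Named genes were all members, up to 3 genes per list with the smallest p in foretinib against DMSO and 1 in each other comparison, and the 5 genes most like MYCN. EIF4A1, GRP, KLF10, MYCL1, MYCNOS and the markers at 0 were named after their values were seen, and some genes the rule names are not reported here. Like-level genes were tested genes within 1.5-fold of a mean. Promoters are from RefSeq, GRCh38.p14. P-values set a difference of group means against the spread between these libraries, which limma moderates over all tested genes.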

Additional observations from a re-analysis of the deposited data

How the results depend on the processing

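Limma called 0 genes in each comparison in nearly every alternative. Quantile normalisation called 1 gene in foretinib against DMSO. DESeq2 on whole reads called 656 genes in foretinib against DMSO (120 higher, 536 lower), 49 in cabozantinib against DMSO and 621 in foretinib against cabozantinib; the cause was not tested. In foretinib against DMSO, DESeq2 called 1 of 12 genes of the Polycomb complex (CBX3) and 1 of 27 MYC targets (HK2), beside 656 of 12642 tested genes. In foretinib against cabozantinib it called 3 of 27 MYC targets, beside 621 of 12642. Whether these list counts exceed the share over all genes was not tested. DESeq2 called 0 of the 9 tested members of the network, as did all other alternatives. Leaving out each library gave 0 calls throughout. The replicate block, in which the title number was a term, gave 0 calls in each comparison. Deviations of same-numbered libraries correlated at -0.002 to 0.029, and those of differently numbered libraries at -0.024 to 0.031. As these ranges overlap, they cannot decide whether equal numbers mark cultures handled together. MYCN, MXI1 and MLXIP kept their direction in 19 of 19 alternatives for foretinib against DMSO, at 0.21 to 0.57, 0.83 to 2.32 and 0.53 to 1.05. MXD1 ran from -4.10 to 1.17, MXD3 from -3.29 to 2.05, MXD4 from -4.27 to 0.39 and MNT from -0.49 to 0.70 there, MAX from -0.28 to 0.10 and MGA from -0.49 to 0.02. The alternatives refit the same libraries, so a kept direction is not independent support. Of 570 list medians, 30 moved by more than the spread between replicates. The median of all genes in foretinib against DMSO moved to -0.04 under quantile normalisation. MXD1, MXD3 and MXD4 are limited by their zeros in foretinib replicate 4.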
